A study of Mus musculus with 12 samples.

Results

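Fc receptors read antibody on the surface of leukocytes, and 5 of the 750 genes in this nanoString table are described here: the IgG receptors Fcgr1, Fcgr3, Fcgr4 and Fcgr2b and the signaling chain Fcer1g. They were taken by gene symbol, and all 5 were among the 689 genes that passed the filter on low values. Their mRNA was measured in 12 mouse mammary tumors, 3 in each of 4 treatment groups, to ask how the PARP inhibitor olaparib and the STING agonist ADU-S100 act alone and together. All tumors came from a K14-Cre mouse model of triple negative breast cancer with floxed (f/f) Brca1 and Trp53, in which the keratin 14 promoter drives Cre, so loss of Brca1 and Trp53 was common to every group, vehicle included. Chunks of tumor were grown in the mammary fat pad of FVB/129P2 females, which are syngeneic, and treatment began at volumes of 150 to 300 mm3. Vehicle mice received DMSO in saline intraperitoneally and saline into the tumor. Olaparib mice received 50 mg/kg daily intraperitoneally, ADU-S100 mice received 50 μg once into the tumor in 40 μl, and combination mice received both agents. Tumors were taken at 3 days and 100 ng of RNA from a frozen chunk was counted. Recipient age was not given in the sources used here.

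Activating Fc gamma receptors bind the constant region of IgG and signal through an associated chain that carries an immunoreceptor tyrosine-based activation motif (ITAM), which recruits Syk and triggers phagocytosis, oxidative burst and cytokine release. The inhibitory receptor Fc gamma RIIB carries its own inhibitory motif (ITIM), recruits the phosphatase SHIP-1 and raises the threshold for these responses. In tumors the receptors lie mainly on macrophages, monocytes, neutrophils, dendritic cells and natural killer cells, and the balance of activating to inhibitory receptor is known to set how strongly such cells respond to antibody-coated targets.

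None of the 5 genes passed the test in any comparison of treatments. The activating receptors Fcgr1 and Fcgr4 and the chain Fcer1g had their lowest group mean in vehicle tumors and their highest in ADU-S100 tumors, whereas inhibitory Fcgr2b had its highest mean in vehicle tumors and its lowest in olaparib tumors. Activating Fcgr3 also had its highest mean in ADU-S100 tumors but its lowest in olaparib tumors, as Fcgr2b did. These orders describe means of 3 tumors with wide spread, and for Fcgr1, Fcgr4 and Fcgr3 the ADU-S100 rank rested on tumor 1506. Without it the ADU-S100 means of Fcgr1 and Fcgr4 were 311 and 81.8, below those of olaparib and combination. That of Fcgr3 was then 158, below 166 in vehicle, whereas that of Fcer1g, at 695, stayed the highest. Relative to Fcgr2b in the same tumor, Fcgr1, Fcgr3 and Fcer1g were higher in every combination tumor than in every vehicle tumor, as were 11.6% of all genes on that ratio, by amounts that did not pass the test either.

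The regulatory sequences of 3 of these genes are shown because they differ in the short motifs they hold. Each window covers 250 bases before and 50 bases after the transcription start, printed 5′ to 3′ on the gene's own strand, from RefSeq on GRCm38.p6. Fcgr1 lies at chr3:96282909-96293969, with its window at chr3:96293920-96294219 on the minus strand. Fcgr4 lies at chr1:171018926-171029761, with its window at chr1:171018676-171018975 on the plus strand. Fcgr2b lies at chr1:170960558-170976071, with its window at chr1:170976022-170976321 on the minus strand. Of 4 motifs searched on both strands, capitals mark the 3 that were found, which did not overlap in these windows. TATAAA, present in 13.6% of windows of this length, was in none of those of the 5 genes.
Fcgr1: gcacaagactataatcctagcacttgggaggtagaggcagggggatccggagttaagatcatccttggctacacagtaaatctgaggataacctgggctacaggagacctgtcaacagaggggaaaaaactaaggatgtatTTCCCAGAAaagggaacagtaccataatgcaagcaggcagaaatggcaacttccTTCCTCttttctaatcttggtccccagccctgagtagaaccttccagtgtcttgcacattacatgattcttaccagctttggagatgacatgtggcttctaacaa
Fcgr4: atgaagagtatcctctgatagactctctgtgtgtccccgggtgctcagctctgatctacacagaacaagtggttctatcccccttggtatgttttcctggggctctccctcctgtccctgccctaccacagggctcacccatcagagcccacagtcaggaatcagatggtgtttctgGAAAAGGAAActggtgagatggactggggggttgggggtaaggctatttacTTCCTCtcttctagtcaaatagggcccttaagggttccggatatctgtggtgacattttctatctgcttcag
Fcgr2b: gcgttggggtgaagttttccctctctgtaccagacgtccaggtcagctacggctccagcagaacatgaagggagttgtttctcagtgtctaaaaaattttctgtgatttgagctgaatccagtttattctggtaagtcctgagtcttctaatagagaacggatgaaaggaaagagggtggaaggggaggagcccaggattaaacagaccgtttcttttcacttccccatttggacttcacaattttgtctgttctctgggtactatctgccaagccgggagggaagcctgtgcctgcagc

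The first motif was TTCNNNGAA, the letters of the interferon gamma activated site. It was present in 8.3% of 32851 promoter windows of the same length and, of the 5 genes, in that of Fcgr1, from -109 to -101 relative to the start. The second was the core of the interferon-stimulated response element, GAAA repeated after any 2 bases, present in 3.44% of windows and here in that of Fcgr4, from -73 to -64. Another was GAGGAA, the core bound by the myeloid factor PU.1, present in 28.3% of windows and here in Fcgr1 from -55 to -50, in Fcgr4 from -22 to -17 and in Fcgr3 from -6 to -1 of one annotated start, which is -15 to -10 of the other. The Fcgr2b and Fcer1g windows held none of these letters. Fcgr3, at chr1:171051169-171065915, and Fcer1g, at chr1:171229572-171234349, lie beside Fcgr2b and Fcgr4, so that 4 of the 5 genes fall within 273.8 kb of chromosome 1.

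All levels below are deposited normalized counts of 1 probe per gene, scaled by the authors for comparison between tumors and not comparable between genes. Tumor medians over all genes still ran from 96.2 to 304, and the sign of some differences below depended on the scaling. Probe sequences were not used here, and Fcgr2b and Fcgr3 are closely related in sequence, so cross-hybridization between them could not be checked. The recovered total count ranged from 106206 in olaparib tumor 1517 to 1519471 in vehicle tumor 1269, and the authors' scaling multiplied counts by 0.589 to 10.5, the highest factor being that of tumor 1517. Values of tumor 1517 thus rest on few counts, 18 for Fcgr4, 19 for Fcgr3, 27 for Fcgr1, 49 for Fcgr2b and 61 for Fcer1g. ADU-S100 tumor 1506 stood apart for these genes, holding the highest value of Fcgr1, Fcgr3, Fcgr4 and Fcer1g, while 12.8% of all genes tested had their highest value in it. The same tumor had the highest Ptprc (the leukocyte antigen CD45), at 1003, and the highest summed level of 11 macrophage and monocyte markers, at 9664. Its median over all genes was also high, at 300.5 against 96.2 to 214 in vehicle tumors. After each tumor was divided by its own median over the genes tested, ADU-S100 tumors reached 2.33 for Fcgr1 and 0.957 for Fcgr3. Olaparib then reached 3.19 for Fcgr1, and vehicle reached 1.47 for Fcgr3. ADU-S100 tumors still reached the highest values of Fcgr4 (0.877) and Fcer1g (4.98).

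Fcgr1 encodes the high-affinity IgG receptor of monocytes and macrophages. Vehicle tumors had 229.9, 262 and 305 normalized counts, and ADU-S100 tumors had 914, 389 and 233. Olaparib tumors had 251, 283 and 429, and combination tumors had 621, 297 and 409. Both groups that received ADU-S100 overlapped vehicle, through ADU-S100 tumor 1513 and combination tumor 1270. The group means were 265 ± 37.6 in vehicle, 512 ± 357 in ADU-S100, 321 ± 94.8 in olaparib and 442 ± 165 in combination (SD, n = 3 each).

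Fcgr4 encodes an activating receptor of monocytes, macrophages and neutrophils that binds IgG2 subclasses. Vehicle tumors had 70.9, 80.3 and 61.0, and ADU-S100 tumors had 345, 92.3 and 71.3. Olaparib tumors had 64.3, 189 and 80.7, and combination tumors had 154, 96.5 and 107. Every combination tumor lay above every vehicle tumor, which made Fcgr4 the 1 gene of 5 whose levels did not overlap in that comparison, against a background of 18.4% of the genes tested that lay higher without overlap and 20% in either direction. The 95% Poisson intervals of the nearest tumors overlapped. After each tumor was divided by its own median over all genes the groups overlapped, with 0.498 to 0.748 in combination and 0.290 to 0.502 in vehicle.

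Fcgr3 encodes the low-affinity activating receptor that natural killer cells, neutrophils and macrophages carry. Vehicle tumors had 79.8, 217 and 202, and ADU-S100 tumors had 285, 175 and 141. Olaparib tumors had 27.3, 199 and 160.3, and combination tumors had 194, 113 and 138. All 4 groups overlapped, with means of 166 ± 75.3 in vehicle, 200.3 ± 75.1 in ADU-S100, 129 ± 90.1 in olaparib and 148 ± 41.8 in combination (SD, n = 3 each). The lowest value, in olaparib tumor 1510, came from 14 counts, with a 95% Poisson interval of 14.9 to 45.8 normalized counts that covers counting error only. From lowest to highest tumor Fcgr3 spanned 10.4-fold, but 3.57-fold without tumor 1510, less than Fcgr1, Fcgr4 and Fcer1g.

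Fcer1g encodes the common gamma chain, the ITAM-bearing partner of the activating Fc gamma receptors and of the high-affinity IgE receptor. Vehicle tumors had 306, 702 and 553, and ADU-S100 tumors had 1769, 910 and 481. Olaparib tumors had 619.6, 639 and 525, and combination tumors had 855, 467 and 638. The olaparib and combination values lay inside the range of the ADU-S100 tumors except for combination tumor 1270. Group means were 520.3 ± 200.1 in vehicle, 1053 ± 656 in ADU-S100, 595 ± 61.0 in olaparib and 654 ± 194 in combination (SD, n = 3 each).

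Fcgr2b encodes the inhibitory receptor, which macrophages and B cells carry. Vehicle tumors had 476, 1335 and 1381, and ADU-S100 tumors had 837, 1257 and 715. Olaparib tumors had 360.4, 513 and 632, and combination tumors had 1147, 501 and 790.4. The olaparib tumors lay below 2 of the 3 vehicle tumors, and vehicle tumor 1269 lay among them. Group means were 1064 ± 509.6 in vehicle, 937 ± 285 in ADU-S100, 502 ± 136 in olaparib and 813 ± 324 in combination (SD, n = 3 each). In bulk RNA, fewer cells of a type and less RNA per cell cannot be told apart.

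**Figure D1:**
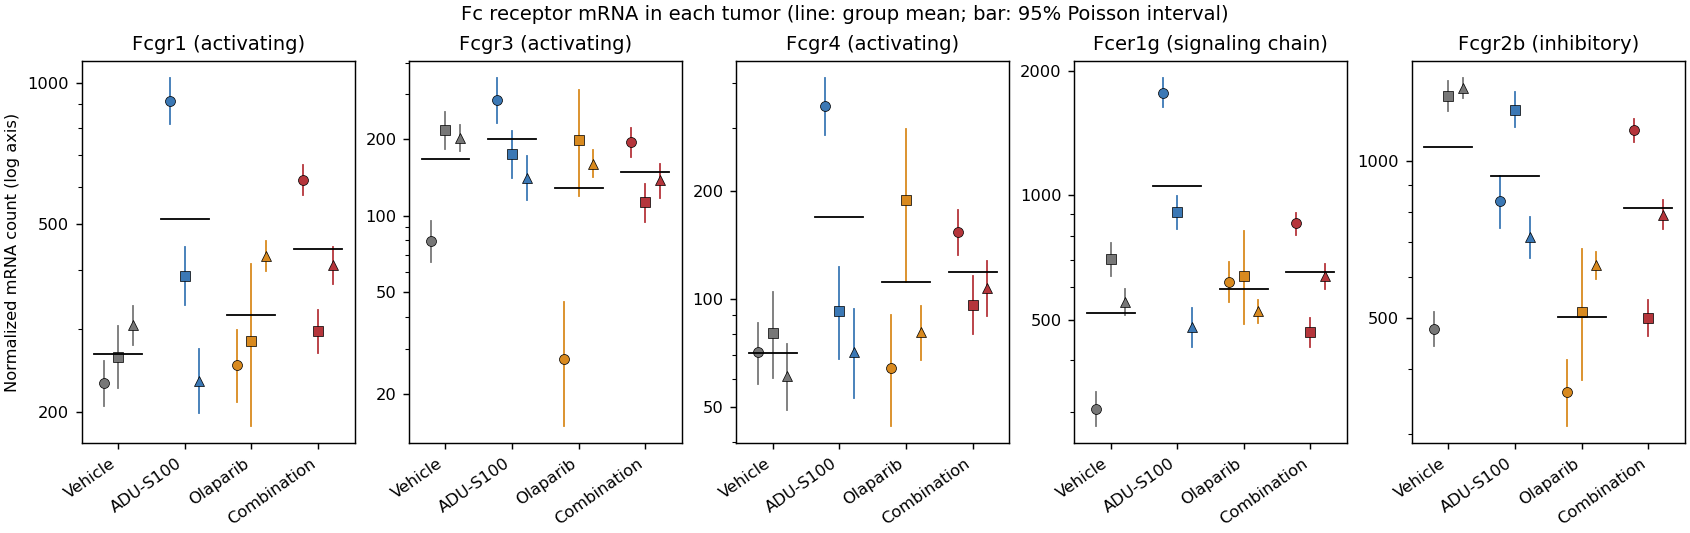
Normalized mRNA count (log axis) of each Fc receptor gene in each tumor by treatment group, with circle, square and triangle for the lowest, middle and highest tumor number of a group, lines for group means and bars for 95% Poisson intervals. ADU-S100 tumor 1506 (circle) is the highest tumor for Fcgr1, Fcgr3, Fcgr4 and Fcer1g, and the olaparib tumors lie at 360.4 to 632 for Fcgr2b.

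Tests used limma on log2(normalized count + 1), so fold changes of low genes are understated, with Benjamini-Hochberg adjustment over 689 genes. In combination against vehicle, the log2 fold change was 0.73 ± 0.60 for Fcgr4 (SE, limma adjusted p = 0.946), 0.68 ± 0.51 for Fcgr1 (adjusted p = 0.887) and 0.37 ± 0.51 for Fcer1g (adjusted p = 0.989). It was -0.07 ± 0.70 for Fcgr3 and -0.32 ± 0.51 for Fcgr2b (limma adjusted p = 0.989 for both). Thus 0 of 5 passed the adjusted threshold of 0.05, as did 0 of 689 genes (0%), and 0 of 5 had an unadjusted p under 0.05, against 7.69% of all genes. The median of the 5 genes was 0.37 beside 0.21 over all genes. Fcer1g was at 0.025 without vehicle tumor 1269, and Fcgr2b ran from -0.82 without that tumor to -0.0081 without combination tumor 1270. When 1 tumor was left out, Fcgr1 ran from 0.40 to 0.93 and Fcgr4 from 0.53 to 0.86. Over the other alternatives their lowest values were 0.36 and 0.29.

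Against the same vehicle tumors, ADU-S100 alone gave log2 fold changes of 0.90 for Fcgr4, 0.90 for Fcer1g, 0.72 for Fcgr1, 0.33 for Fcgr3 and -0.07 for Fcgr2b (limma adjusted p of 0.809 to 0.974). None of the 5 had an unadjusted p under 0.05, against 4.79% of all genes, and none separated the groups, against 14.9%. Their median of 0.72 stood beside 0.44 over all genes. Without tumor 1506 the Fcgr4 value was 0.20, that of Fcgr1 was 0.19 and that of Fcer1g was 0.43. The median of the 5 genes was then 0.19 beside 0.16 over all genes. The sign of the Fcgr3 value depended on scaling, being -0.16 when each tumor was set to the same median.

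Olaparib alone, against the same vehicle tumors, gave -0.97 ± 0.51 for Fcgr2b (SE, limma adjusted p = 0.582; unadjusted 0.0836), the lowest unadjusted p of any of the 5 genes in that comparison. Fcgr3 was at -0.66, Fcgr4 at 0.49, Fcer1g at 0.27 and Fcgr1 at 0.24 (limma adjusted p of 0.729 to 0.850). The Fcgr2b value stayed negative in every alternative run, from -1.47 to -0.70 when 1 tumor was left out. That of Fcgr3 rested on tumor 1510 and was 0.23 without it. Fcgr4 was at 0.035 without tumor 1517 and Fcgr1 at 0.016 without tumor 1521. None of the 5 had an unadjusted p under 0.05, against 7.26% of all genes, or separated the groups, against 4.79%. Fcgr2b did have an unadjusted p under 0.05 under 6 of the alternatives, such as 0.0367 at equal medians and 0.0117 without vehicle tumor 1269, and none of these passed after adjustment by limma or edgeR. Without olaparib tumor 1521, 225 of 689 genes had an unadjusted p under 0.05 and 55 passed after adjustment, 0 of the 5 among them. The median over all genes was 0.45, or 0.087 without tumor 1517, which held the highest value of 47.3% of all genes, and 0.81 without tumor 1521. On scaling to equal medians Fcgr1 was at -0.13 and Fcer1g at -0.10.

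The combination was also set against each single agent. Against ADU-S100 the 5 log2 fold changes ran from -0.53 for Fcer1g to -0.04 for Fcgr1 (limma adjusted p of 0.693 to 0.962), with none at an unadjusted p under 0.05 against 9.14% of all genes, and none without overlap against 31.3%. Without ADU-S100 tumor 1506, Fcgr4 turned to 0.52 and Fcgr1 to 0.49, and Fcer1g was at -0.060. Against olaparib they ran from 0.10 for Fcer1g to 0.65 for Fcgr2b (limma adjusted p of 0.682 to 0.943), with none at an unadjusted p under 0.05 against 7.26%, and none without overlap against 12.8%. The interaction, the ADU-S100 effect with olaparib minus that without, was 0.73 for Fcgr2b and -0.80 for Fcer1g (limma adjusted p = 0.649 and 0.615), and no member had an unadjusted p under 0.05, against 10.9% of all genes. When 1 tumor was left out, the Fcgr2b interaction ran from 0.44 to 1.23. That of Fcer1g ran from -1.27 to -0.33, the latter without ADU-S100 tumor 1506.

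**Figure D2:**
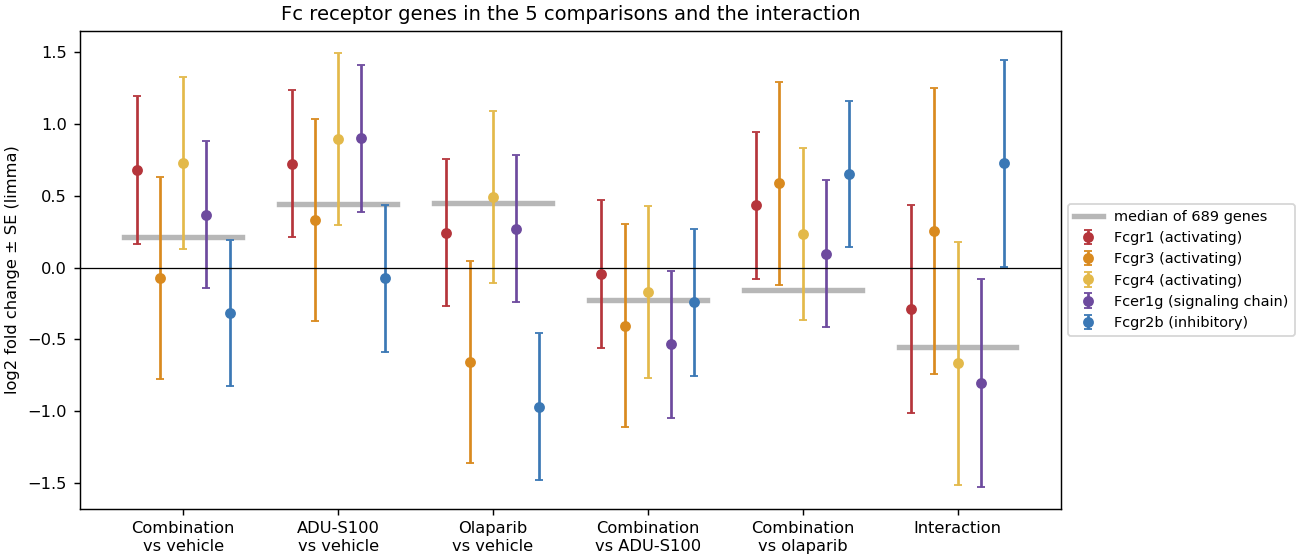
Log2 fold change with its SE from limma for each Fc receptor gene in the 5 comparisons and the interaction, with a grey bar for the median of all 689 genes tested. Fcgr2b lies lowest in olaparib against vehicle, at -0.97, where the median of all genes is 0.45.

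Activating and inhibitory receptors were next compared within each tumor, as a ratio of recovered counts to Fcgr2b that no scaling can alter. The Fcgr1 ratio was 0.483, 0.196 and 0.221 in vehicle tumors, 1.09, 0.309 and 0.325 in ADU-S100, 0.697, 0.551 and 0.679 in olaparib, and 0.542, 0.592 and 0.518 in combination. All olaparib and all combination tumors lay above all vehicle tumors, although the 95% counting intervals of vehicle tumor 1269 overlapped those of olaparib tumor 1517 and of all 3 combination tumors. The Fcer1g ratio was 0.642, 0.526 and 0.401 in vehicle, 2.11, 0.723 and 0.673 in ADU-S100, 1.72, 1.24 and 0.831 in olaparib, and 0.746, 0.933 and 0.807 in combination. Each treated group lay wholly above vehicle for this chain, although the intervals of vehicle tumor 1269 overlapped those of ADU-S100 tumors 1512 and 1513 and combination tumor 1251, and those of vehicle tumor 1529 overlapped ADU-S100 tumor 1513.

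The Fcgr3 ratio differed little, at 0.168, 0.163 and 0.147 in vehicle and 0.169, 0.225 and 0.174 in combination, which did not overlap, although the counting intervals did for every pair of tumors except vehicle 1536 and combination 1270. It was 0.340, 0.139 and 0.198 in ADU-S100 and 0.0757, 0.388 and 0.254 in olaparib. The Fcgr4 ratio was 0.149, 0.0601 and 0.0442 in vehicle, 0.412, 0.0734 and 0.0998 in ADU-S100, 0.178, 0.367 and 0.128 in olaparib, and 0.134, 0.192 and 0.136 in combination. For Fcgr4 every treated group overlapped vehicle, through vehicle tumor 1269.

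In combination against vehicle, 3 of 4 ratios were higher without overlap, against a background of 11.6% when each of the other 688 genes was divided by Fcgr2b. The log2 ratio differed by 0.99 for Fcgr1, 1.04 for Fcgr4, 0.68 for Fcer1g and 0.25 for Fcgr3 (limma adjusted p of 0.850 to 0.956, with 0% of all genes past 0.05), with a median of 0.84 beside 0.53 over all genes. In ADU-S100 against vehicle, 1 of 4 was higher without overlap (background 13.5%), with a median of 0.88 beside 0.52. Without ADU-S100 tumor 1506 that median was 0.21 beside 0.17. In olaparib against vehicle, 2 of 4 were (background 10.9%), with differences of 1.46 for Fcgr4, 1.24 for Fcer1g, 1.21 for Fcgr1 and 0.31 for Fcgr3 (limma adjusted p of 0.187 to 0.711). There the median of all genes over Fcgr2b was itself 1.42, above the 1.22 of the 4 receptors, and 32.1% of genes had an unadjusted p under 0.05. No ratio separated the combination from ADU-S100 (background 12.6%) or from olaparib (background 4.51%).

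**Figure D3:**
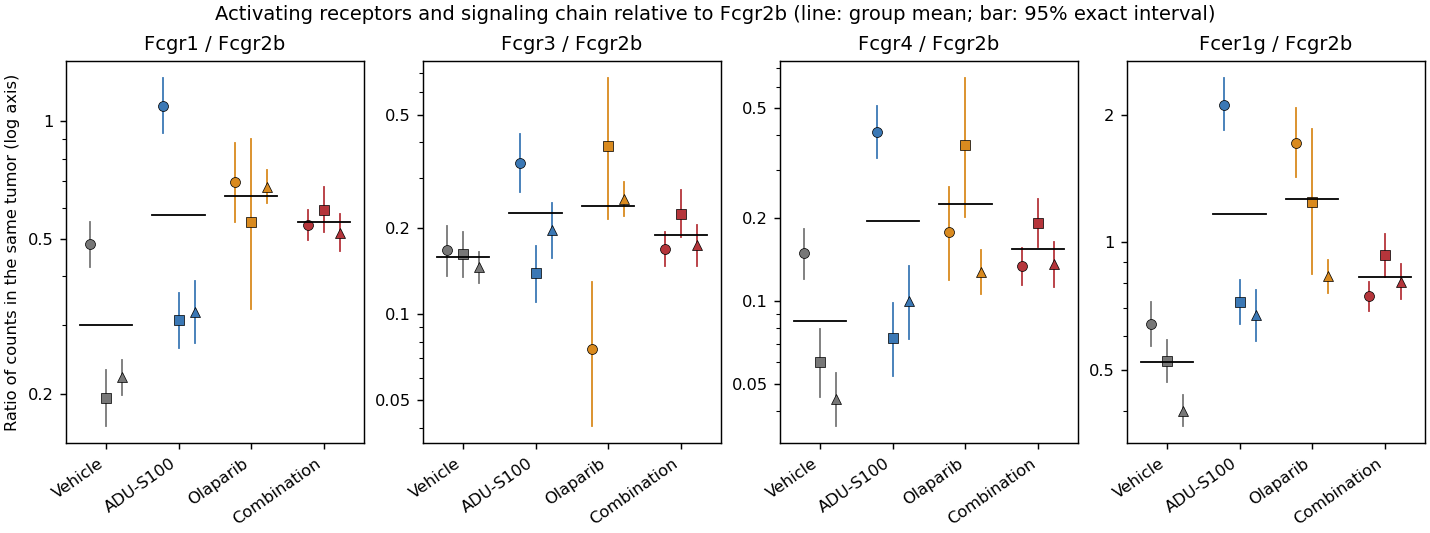
Ratio of each gene's count to that of Fcgr2b in the same tumor (log axis) by treatment group, with lines for group means and bars for 95% exact intervals. The combination tumors lie at 0.518 to 0.592 for Fcgr1, above the vehicle tumors at 0.196 to 0.483.

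Macrophages carry all of these receptors, so levels were also set against Cd68, a lysosomal macrophage glycoprotein; this ratio was chosen after the values had been seen and was not tested. Fcgr2b over Cd68 was 1.19, 1.98 and 2.08 in vehicle tumors and 0.794, 0.766 and 0.938 in olaparib tumors, which did not overlap. A lower ratio without overlap occurred for 2.03% of 688 genes. The ADU-S100 tumors had 0.790, 1.502 and 1.16, and the combination tumors 1.34, 1.11 and 1.16, the latter all above olaparib (a pattern of 5.23% of genes). Fcgr1 over Cd68 was 0.573, 0.389 and 0.459 in vehicle and 0.726, 0.657 and 0.598 in combination, again without overlap, as for 8.14% of genes. For Fcgr1 the counting intervals of vehicle tumor 1269 overlapped those of combination tumors 1270 and 1539. For Fcgr2b those of olaparib tumor 1517 overlapped vehicle tumor 1269 and combination tumors 1270 and 1539, and those of olaparib tumor 1521 overlapped combination tumor 1270. No other receptor separated groups on this scale. The separations depended on the marker: over each of the 11 macrophage and monocyte markers in turn, Fcgr2b was lower without overlap in olaparib than in vehicle for 2 (Cd68 and Marco), and higher in combination than in olaparib for the same 2. Fcgr1 was higher in combination than in vehicle for 4 of the 11. Over Csf1r, the receptor for macrophage colony-stimulating factor, Fcgr2b was 0.355 to 0.781 in olaparib and 0.698 to 0.995 in vehicle, which overlapped.

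**Figure D4:**
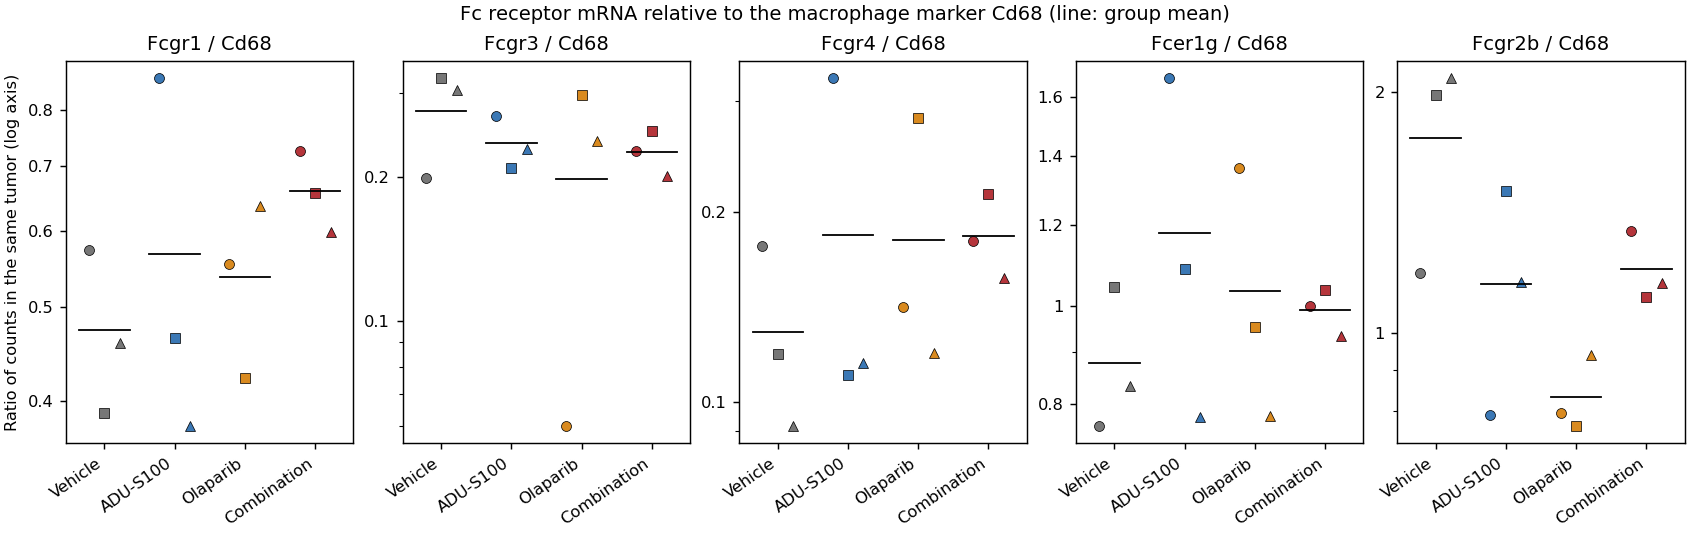
Ratio of each Fc receptor gene's count to that of Cd68 in the same tumor (log axis) by treatment group, with lines for group means. The olaparib tumors lie at 0.766 to 0.938 for Fcgr2b, below the vehicle tumors at 1.19 to 2.08.

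Markers of immune and stromal cells were read beside these values, where the median log2 fold change of all genes against vehicle was 0.21 in combination, 0.44 in ADU-S100 and 0.45 in olaparib. Of 11 macrophage and monocyte markers, 3 were higher in combination than in vehicle, 0 of them past the adjusted threshold, with a median log2 fold change of -0.14, while 9 were higher in ADU-S100 (median 0.28) and 4 in olaparib (median -0.14). Their summed level was 4081 to 8217 in vehicle, 4865 to 9664 in ADU-S100, 4210.2 to 7902 in olaparib and 5685 to 7484 in combination. Of 7 natural killer cell markers, 6 were higher in combination, with a median log2 fold change of 0.87, and 7 were higher in ADU-S100 and in olaparib, with medians of 1.55 and 1.43. Their sums were 82.9 to 153 in vehicle, 194 to 692 in ADU-S100, 93.7 to 838 in olaparib and 207 to 315 in combination, and Klra7 was at the floor in vehicle tumors 1269 and 1536. At an unadjusted limma p under 0.05, 4 of these 7 were higher in ADU-S100, 2 in olaparib and 1 in combination. The shares of all genes called were 4.79%, 7.26% and 7.69%. All 8 neutrophil markers were higher in combination (median 0.85), 7 in ADU-S100 (0.998) and 6 in olaparib (0.87), but Lcn2 made up 93.6% to 99.4% of their sum in each tumor. Without Lcn2 the other 7 summed to 1069 to 2226 in vehicle, 1952 to 7776 in ADU-S100, 723 to 3411 in olaparib and 1605 to 1797 in combination. Of 4 dendritic cell markers, 3 were higher in combination (median 0.62), 3 in ADU-S100 (0.47) and 4 in olaparib (0.80), with sums of 110.1 to 169 in vehicle, 197 to 349 in combination, 128 to 242 in ADU-S100 and 148 to 398 in olaparib. Of 9 B cell markers 3 passed the filter, of which 2 were higher in combination (median 0.56), 3 in ADU-S100 (0.89) and 3 in olaparib (1.28). All 9 summed to 60.03 to 129 in vehicle, 98.8 to 164 in combination, 116 to 268 in ADU-S100 and 58.9 to 503 in olaparib. Of 7 T cell markers 5 passed the filter, and all 5 were higher in combination (median 1.64), in ADU-S100 (0.57) and in olaparib (0.92). In combination 4 of the 5 had an unadjusted limma p under 0.05, against 7.69% of all genes, and 0 passed after adjustment. All 7 summed to 87.3 to 189 in vehicle, 294 to 474 in combination, 158 to 353 in ADU-S100 and 125 to 576 in olaparib. The vehicle and combination sums did not overlap for T cell, natural killer cell and dendritic cell markers, nor did vehicle and ADU-S100 for natural killer cells. Of single genes tested, 18.4% lay higher in combination than in vehicle without overlap. Of 8 stromal and endothelial markers, 0 were higher than in vehicle in combination (median -0.89) or in olaparib (median -0.80), and 4 were in ADU-S100. Their sums were 14698 to 73207 in vehicle, 12991 to 24021 in combination, 3906 to 36804 in olaparib and 28150.5 to 51079 in ADU-S100. Of these 8 markers, 3 were lower in olaparib and 1 in combination at an unadjusted limma p under 0.05, against the same 7.26% and 7.69%. The part of these cells in the receptor values was not tested.

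Levels were also followed together across tumors, as a description. Over 12 tumors, log2 levels of Fcgr1 and Fcer1g had a Pearson r of 0.81, and those of the inhibitory Fcgr2b and activating Fcgr3 had 0.72, whereas Fcgr2b and Fcgr4 had 0.06. Both values of a pair come from the same tumor and share its scaling, and with all tumors set to the same median these were 0.80, 0.71 and -0.09. Among the genes most like Fcgr1 were Ccl12 (r = 0.83), a monocyte chemokine, and Cd180 (0.83), a Toll-like receptor homologue. Those most like Fcer1g were Irf5 (0.91), Ncf4 (0.90), a subunit of the phagocyte oxidase, and Cd84 (0.89).

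Those most like Fcgr2b were Colec12 (r = 0.83) and Msr1 (0.80), both scavenger receptors, and Fn1 (0.78), fibronectin, again over 12 tumors. For Fcgr3 they were Twist1 (0.88), Emr1 (0.85), which encodes the macrophage antigen F4/80, and Ada (0.85), adenosine deaminase. For Fcgr4 they were Stat4 (0.86), Batf (0.84) and Ncr1 (0.82), which dropped to 0.56, 0.38 and 0.46 when tumors were set to the same median. Without the 2 tumors farthest from the median of each receptor, the values of r for the genes named ran from 0.37 for Ncr1 to 0.81 for Msr1. The median r over all genes tested was 0.47 for Fcgr4, 0.34 for Fcer1g, 0.14 for Fcgr1, 0.14 for Fcgr3 and -0.08 for Fcgr2b. Fcgr4 also had an r of 0.54 with the log2 scaling factor, against 0.02 for Fcgr1. With tumors set to the same median these were -0.07 for Fcgr4 and -0.67 for Fcgr1.

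The pathway around the receptors was read from gene lists in combination against vehicle, in which no gene passed the adjusted threshold. Of 12 ITAM signaling genes, 10 were higher, with a median log2 fold change of 0.64, among them Zap70 (1.68), the Syk relative of T and natural killer cells, Pik3cg (0.91) and Bcl10 (0.65). The T cell markers were higher in the same comparison, and their part in these values was not tested. In ADU-S100 and in olaparib against vehicle 10 of the 12 were also higher, with medians of 0.55 and 0.43 beside 0.44 and 0.45 over all genes. Inpp5d, which encodes the SHIP-1 phosphatase that Fc gamma RIIB recruits, was the ITIM signaling gene measured and stood at 0.26 ± 0.55 (SE, limma adjusted p = 0.989). Of 11 effector genes, 10 were higher, with a median of 0.39 beside 0.21 over all genes. An unadjusted p under 0.05 was found for 2 of the 11, against 7.69% of all genes: Cybb (1.201), the catalytic subunit of the phagocyte oxidase, and Tnf (1.11), with unadjusted limma p-values of 0.0228 and 0.0414. The IgE receptor chains Fcer1a and Ms4a2 were at -0.30 and -0.04, and Fcer2a did not pass the filter.

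Interferon gamma is known to induce Fcgr1 in myeloid cells. All 13 interferon gamma response genes tested were higher in combination than in vehicle, with a median of 1.09 beside 0.21 over all genes, and 6 had an unadjusted limma p under 0.05, against 7.69% of all genes, while 0 passed after adjustment. Ifng, the ligand, did not pass the filter, at 6.14, 11.9 and 7.62 in vehicle and 8.91, 9.89 and 9.02 in combination. The chemokines Cxcl9 (3.13) and Cxcl10 (2.10) and the guanylate-binding proteins Gbp5 (2.19) and Gbp2b (1.79) had the lowest p-values of the list. The corresponding Fcgr1 value was 0.68 and that of Fcgr4 was 0.73. In ADU-S100 against vehicle 9 of the 13 were higher, with a median of 0.18 below the 0.44 of all genes, beside 0.72 for Fcgr1 and 0.90 for Fcgr4. In olaparib against vehicle 11 were, with a median of 0.38 below the 0.45 of all genes, beside 0.24 and 0.49.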

How the data were processed

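Normalized mRNA counts were analysed in 12 tumors, grouped by their labels. The values deposited are a linear signal from nanoString nCounter probes. With nSolver software the authors applied quality control and background correction, dropped raw counts under the negative controls, and scaled each tumor by positive controls and by housekeeping genes (their geometric mean). Control and housekeeping probes were not analysed here. Because nearly all values are multiples of 1 step per tumor, counts were recovered, and at least 99.87% of values above the floor came out whole within 0.01 in each tumor. In 5 tumors the lowest value was that step, a single count, so low counts remain in the deposited values. In the other 7 it was either the floor of 1 or 2 steps, so the step there rests on the spacing between values. The counting intervals depend on that step, whereas it cancels in ratios within a tumor. Depth was 106206 to 1519471 counts per tumor. Poisson and exact binomial 95% intervals cover counting error only.

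The analysis used log2(value + 1) of the 689 of 750 genes with at least 20 in at least 3 tumors. Limma 3.58.1 (R 4.3.3) fitted 1 mean per group over all tumors, with Benjamini-Hochberg adjustment over all genes and a threshold of 0.05. Within-tumor ratios to Fcgr2b were fitted the same way. The comparisons share vehicle or combination tumors. The labels do not state that the 3 tumors of a group came from separate mice, so p-values measure the spread between these samples. On simulated data for combination against vehicle (689 genes), limma recovered 50% of log2 changes of 2 and 9.09% of changes of 1. Alternatives were other scalings, filters, pseudocounts (10), background subtraction, covariates, edgeR 4.0.16 on recovered counts, the methods' t-test on log2 values, and omission of each tumor.

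Per list, at most 4 genes with the smallest p in combination against vehicle were named, and per receptor the 3 genes with the highest correlation, except for an item not reported here. Receptors and lists were chosen with earlier results of these data known. Of 750 symbols, 736 were current in RefSeq, 8 were older symbols and 6 were not matched.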

Additional observations from a re-analysis of the deposited data

How the results depend on the processing

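Across 1148 alternative values for 54 receptor results, 0 passed the adjusted threshold, and 61 had the opposite direction, 33 of them on leaving out 1 tumor. The causes were not tested. Unadjusted p fell under 0.05 for Fcgr2b in olaparib against vehicle at equal medians, with quantile normalization, both edgeR fits, the number-series block and without vehicle 1269, for Fcgr4 in combination against vehicle by the methods' t-test, and for Fcer1g and Fcgr1 in ADU-S100 against vehicle without ADU-S100 1513. Of 689 genes, 46 to 84 did so in the settings named for Fcgr2b, 86 by that t-test and 61 without ADU-S100 1513. Among the ratios in olaparib against vehicle unadjusted limma p did so for Fcgr4 with the block (0.0496) and without olaparib 1521 (0.0412), and for Fcgr1 (0.0354) and Fcgr4 (0.0278) without vehicle 1269. On that ratio 261 of 688 genes did so with the block, 404 without olaparib 1521 and 346 without vehicle 1269. Over all genes, 55, 54 and 86 passed the adjusted threshold without olaparib 1521 in olaparib against vehicle, combination against olaparib and the interaction, where 0 passed with it, and none was a receptor. No paired analysis was possible because the groups share no tumor number.

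With each tumor set to the same median, quantile normalization and edgeR with TMM, in that order, the log2 value became -0.16, -0.15 and -0.27 for Fcgr3 in ADU-S100 against vehicle. In olaparib against vehicle it became -0.10, -0.091 and -0.17 for Fcer1g and -0.13, -0.089 and -0.00014 for Fcgr1. For Fcgr1 it became 0.18, 0.061 and 0.10 in combination against ADU-S100 and 0.30, 0.15 and 0.10 in the interaction. Fcgr4 in combination against ADU-S100 became 0.050 at equal medians.

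With the log2 factor as a covariate, Fcer1g and Fcgr4 in olaparib against vehicle became -0.013 and -0.062, and Fcgr4 became 0.35 in combination against ADU-S100 and 0.42 in the interaction. With the tumor number series (12 or 15) as a block, Fcgr3 in combination against vehicle became 0.14. In combination against ADU-S100, Fcgr1, Fcgr2b and Fcgr3 became 0.031, 0.28 and 0.022, and the Fcgr1 and Fcgr4 ratios to Fcgr2b became -0.25 and -0.52. EdgeR with the authors' factors gave -0.029 for the Fcgr3 interaction, and background subtraction gave 0.19 for the Fcgr3 ratio in combination against olaparib.

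Leaving out 1 tumor at a time, the range was -0.53 to 0.18 for Fcgr3 in combination against vehicle (positive without vehicle 1529, vehicle 1536 or combination 1270). In ADU-S100 against vehicle it was -0.58 to 0.19 for Fcgr2b (positive without vehicle 1529, vehicle 1536 or ADU-S100 1513) and -0.13 to 0.59 for Fcgr3 (negative without vehicle 1269). In olaparib against vehicle it was -0.073 to 0.53 for Fcer1g (negative without vehicle 1269), -1.18 to 0.23 for Fcgr3 (positive without olaparib 1510) and -0.18 to 0.98 for the Fcgr3 ratio (negative without olaparib 1517).

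In combination against ADU-S100 it was -0.50 to 0.49 for Fcgr1 and -0.61 to 0.52 for Fcgr4 (both positive without ADU-S100 1506, Fcgr1 also without combination 1270), and -0.53 to 0.066 for Fcgr2b (positive without combination 1270). The ratios ran from -0.58 to 0.24 for Fcer1g and -0.46 to 0.18 for Fcgr3 (both positive without ADU-S100 1506), -0.12 to 0.79 for Fcgr1 and -0.42 to 0.82 for Fcgr4 (both negative without ADU-S100 1512 or 1513, Fcgr4 also without combination 1270). In combination against olaparib it was -0.12 to 0.32 for Fcer1g (negative without combination 1251), -0.30 to 1.11 for Fcgr3 and -0.079 to 0.69 for Fcgr4 (both negative without olaparib 1510). The ratios ran from -0.74 to 0.42 for Fcgr3 (positive without olaparib 1517, olaparib 1521 or combination 1251) and -0.75 to 0.0029 for Fcgr4 (positive without olaparib 1517). In the interaction it was -0.74 to 0.24 for Fcgr1 and -1.10 to 0.026 for Fcgr4 (both positive without ADU-S100 1506), -0.64 to 0.78 for Fcgr3 (negative without vehicle 1529 or olaparib 1510) and -1.14 to 0.015 for the Fcgr3 ratio (positive without olaparib 1517).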
